A study of Mus musculus with 8 samples.

Results

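Calponins, transgelins, tropomyosins and alpha-actinins are proteins that bind actin filaments and set how long-lived, how closely bundled and how contractile those filaments are. The 10 genes described here are Cnn1, Cnn2, Cnn3, Tagln, Tagln2, Tpm1, Tpm2, Tpm4, Actn1 and Actn4, of 12393 mouse genes that had at least 1 probe set of their own on the array. They were measured by 23 probe sets, every probe set whose only gene symbol in the array's annotation is that of a member, of 22626 probe sets in all. The genes were selected on earlier results of the same rescued against Picalm-/- values, in which Cnn3 stood near the bottom of the ranking, and the others are its relatives and partners on the filament. Their differences between PICALM-rescued and Picalm-/- cells are therefore a description, and the counts of calls in that comparison stand only beside those of all probe sets. Tests that bear on the members are those of differences among the cell lines, which took no part in the choice.

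PICALM is an adaptor protein of clathrin-mediated endocytosis, the uptake of membrane in clathrin-coated pits. Expression was measured on 8 Affymetrix arrays from 4 mouse hematopoietic cell lines, PICALM6A, PICALM6B, PICALM6D and PICALM84, called 6A, 6B, 6D and 84 below. PICALM-rescued cells carried human PICALM cDNA in the MSCVneo retrovirus, and Picalm-/- cells carried the empty MSCVneo vector, both under geneticin selection, with 1 array of each kind from each line (n = 4 per group). All 8 cultures shared the rest. They came from fetal liver of E14 embryos with the fit1 and Picalm fit1-5R alleles, which leave no functional Picalm, on the background strain B6(Cg)-TyrC-2J/J, they were immortalized with the fusion oncogene MLL-ENL in the vector MSCV-IRES-eGFP and serially replated in methylcellulose, and they grew in RPMI with 10% FBS, interleukin-3 at 5 ng/ml and stem cell factor at 50 ng/ml. PICALM in the rescued cells was driven by a retrovirus and may have been above its normal level. The labels do not say whether the lines came from separate embryos, so p-values measure the spread between these samples, and the number of arrays limits the precision. Picalm itself was not analysed here, so the group labels were not checked against its level.

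Values are log2 expression levels after RMA, a method that corrects the background of the arrays, brings them to 1 distribution and summarises the probes of each probe set. A difference is always rescued minus Picalm-/- within a line, so that 1 unit is a 2-fold change, and its error is the SE over the 4 lines. The cells carried the markers of their labelled type, with 10 of 10 hematopoietic markers (Ptprc, Spi1, Kit and others) outside the dimmest 40% of all probe sets and a mean over the list of 11.52 to 11.62 in rescued arrays and 11.49 to 11.56 in Picalm-/- arrays. Line 84 stood apart. Of 22626 probe sets, limma placed 7.16% higher and 7.69% lower in line 84 than in the mean of the other 3 lines, against 0.747% to 1.41% higher and 0.712% to 0.888% lower for each other line. Its 2 arrays also had a mean over 12 interferon response genes of 7.40 (rescued) and 10.00 (Picalm-/-), where the other 3 lines had 5.80 to 5.99 (rescued) and 5.82 to 5.93 (Picalm-/-). Several values that rest on line 84 are also given without it.

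A filament's behaviour depends on which of these proteins coat it. Tropomyosins lie end to end along the groove of the filament and govern which myosins and severing proteins can reach it, and each gene makes several isoforms through alternative promoters and splicing. Calponins and the related transgelins bind along the side of the filament, stabilise it and, in smooth muscle, restrain myosin. Alpha-actinins are antiparallel dimers that tie neighbouring filaments together and anchor them at integrin adhesions. In muscle and connective tissue, many of the genes are driven by serum response factor (SRF) and its actin-sensing coactivators, the MRTFs, through a DNA element called the CArG box, while blood cells use mainly the non-muscle members.

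The promoters of the 4 members on which the results turn are shown first, so that the CArG box and 2 other elements can be looked for in them. Each sequence is the 250 bases before a transcription start of the gene in RefSeq (GRCm38.p6), read 5′ to 3′ on the gene's strand, and for Tpm1 that start lies inside the gene's span. Capitals mark the CArG box (searched by its name's standard pattern), the MCAT element (CATTCC) and the GC box (GGGCGG), each on both strands. The Cnn3 window is chr3:121426291-121426540 (plus strand), the Cnn2 window chr10:79988350-79988599 (plus strand), the Tpm1 window chr9:67049214-67049463 (minus strand) and the Tpm4 window chr8:72135038-72135287 (plus strand).
Cnn3: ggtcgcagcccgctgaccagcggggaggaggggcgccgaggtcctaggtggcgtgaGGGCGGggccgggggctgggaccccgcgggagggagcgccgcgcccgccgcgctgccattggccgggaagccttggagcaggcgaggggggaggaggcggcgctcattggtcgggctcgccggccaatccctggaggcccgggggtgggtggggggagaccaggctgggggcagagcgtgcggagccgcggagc
Cnn2: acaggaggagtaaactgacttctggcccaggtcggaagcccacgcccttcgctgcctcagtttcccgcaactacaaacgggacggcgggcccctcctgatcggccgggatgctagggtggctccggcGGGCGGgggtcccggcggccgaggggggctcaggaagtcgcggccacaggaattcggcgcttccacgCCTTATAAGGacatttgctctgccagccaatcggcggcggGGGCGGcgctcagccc
Tpm1: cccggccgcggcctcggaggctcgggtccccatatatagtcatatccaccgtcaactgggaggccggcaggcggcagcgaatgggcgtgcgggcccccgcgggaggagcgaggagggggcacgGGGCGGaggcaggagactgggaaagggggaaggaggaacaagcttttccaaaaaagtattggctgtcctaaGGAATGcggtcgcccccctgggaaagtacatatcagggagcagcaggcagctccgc
Tpm4: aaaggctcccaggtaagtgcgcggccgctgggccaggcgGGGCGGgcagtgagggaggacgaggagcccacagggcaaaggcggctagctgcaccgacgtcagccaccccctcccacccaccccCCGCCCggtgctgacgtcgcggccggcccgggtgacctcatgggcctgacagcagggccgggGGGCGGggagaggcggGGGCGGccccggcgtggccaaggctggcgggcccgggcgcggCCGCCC
Such a window was at hand for 9 of the 10 members, all but Tagln, whose promoter was therefore not searched. The Cnn2 window had the CArG box CCTTATAAGG at 56 to 47 bases before the start, the only CArG match among the 9 members, and 1.47% of 32851 promoters of the same length hold one. The Tpm1 window had an MCAT element, the binding sequence of TEAD factors, which 3 of 9 members (Tagln2, Actn4 and Tpm1) and 12.6% of all promoters hold. The Cnn3 window had 1 GC box, the Tpm4 window 5, and 8 of 9 members had at least 1, against 32.7% of all promoters. G and C made up 78.8% of the bases in the Cnn3 and Tpm4 windows, 68.4% in the Cnn2 window and 65.2% in the Tpm1 window, where the median over all promoters was 52.4%. The TATA box (TATAAA) was in 0 of 9 members and 12.4% of all promoters. A match is a description of letters only.

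Within the family the values of rescued against Picalm-/- cells ran in different directions. Cnn3 was lower in the rescued cells of every line on all 6 of its probe sets, Cnn2 was higher in every line, and most of the other members differed little. Of the 23 probe sets, 2 were higher in rescued cells of each line (Cnn2 and Actn4), 8 were lower in all 4 (the 6 of Cnn3 and 2 of Tpm1) and 13 were mixed. Over all probe sets, 12.0% were higher and 11.8% lower in all 4 lines. A total of 15 of the 23 mean differences lay within 0.15 of 0. The limma fit with the line as a block called 0 probe sets higher and 4 lower of 22626 at an adjusted p of 0.05 (0.0177%), of which 0 belonged to the members, while 2825 probe sets, 8 of them of members, had an unadjusted p under 0.05. The paired SAM statistic, at the looser threshold of a false discovery rate under 0.1, called 356 lower (1.57%) and 62 higher (0.274%). Among those lower were 6 of the members' probe sets, those of Cnn3 other than 1438354_x_at and Tpm1 1423049_a_at. At an adjusted p of 0.1 limma called 18 probe sets (0.0796%), 2 of them of the members, both of Cnn3. Because this comparison chose the members, nothing is read from these counts.

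**Figure D1:**
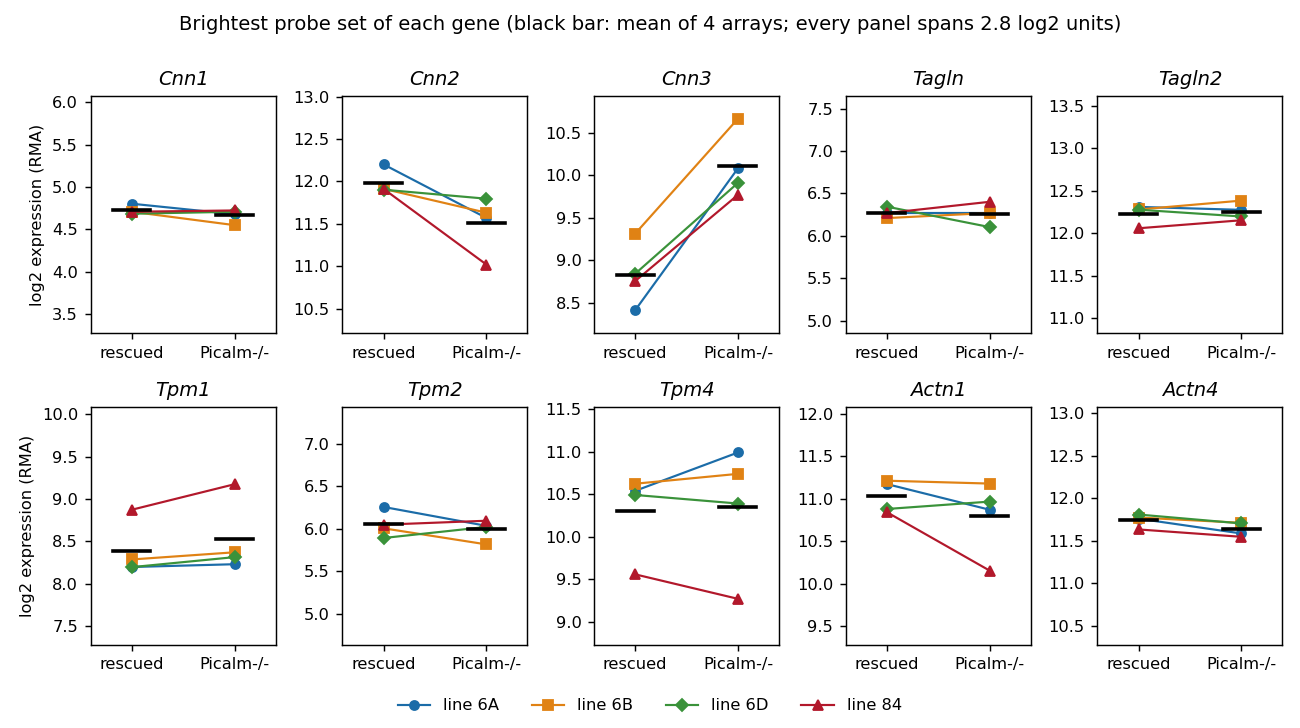
Log2 expression of the brightest probe set of each of the 10 genes in the rescued and Picalm-/- array of each cell line, with the 2 arrays of a line joined and a black bar at the mean of the 4 arrays. Every panel spans the same height, so that the slopes compare, and Cnn3 has the steepest, from -1.67 in line 6A to -1.02 in line 84, while line 84 lies apart for Tpm1 and Tpm4.

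Cnn3 encodes the acidic calponin, a form of many non-muscle cells that is known from brain, fibroblasts and developing tissues. The gene spans chr3:121426541-121458205. Its brightest probe set, 1436836_x_at, read 8.41 in line 6A, 9.31 in 6B, 8.84 in 6D and 8.76 in 84 in rescued cells, against 10.08, 10.67, 9.91 and 9.77 in Picalm-/- cells of the same lines. All 4 rescued arrays lay below all 4 Picalm-/- arrays. The group means were 8.83 ± 0.37 in rescued cells and 10.11 ± 0.39 in Picalm-/- cells (SD, n = 4), a mean difference of -1.28 (SE 0.15), or 2.43-fold lower with PICALM. By mean difference this probe set was number 6 from the lowest of all 22626.

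Of the 6 Cnn3 probe sets, 5 carry the suffix _x_at, with which the maker marks probes that can bind other transcripts too. The one without the suffix, 1426724_at, read 7.39, 7.99, 7.83 and 7.56 in rescued cells of lines 6A, 6B, 6D and 84, against 8.88, 9.36, 8.68 and 8.34 in Picalm-/- cells. Its groups did not overlap either, with means of 7.69 ± 0.27 in rescued and 8.81 ± 0.43 in Picalm-/- cells (SD, n = 4) and a mean difference of -1.12 (SE 0.18), which was number 13 from the lowest. The lowest Cnn3 value was that of 1436759_x_at, with 6.56, 7.79, 7.24 and 7.28 in rescued cells, against 8.74, 9.17, 8.58 and 8.38 in Picalm-/- cells, and a mean difference of -1.50 (SE 0.24), 2.83-fold lower and number 2 of all probe sets. For 1455570_x_at the difference was -1.34 (SE 0.17) and for 1456380_x_at it was -0.93 (SE 0.16). The smallest, for 1438354_x_at, was -0.38 (SE 0.12), from 6.43, 6.53, 6.69 and 6.50 in rescued cells against 7.05, 7.09, 6.83 and 6.71 in Picalm-/- cells. All 6 probe sets were thus free of overlap between the groups, where 1.57% of all probe sets were lower without overlap.

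The size of the Cnn3 difference varied between lines. It was largest in line 6A on 6 of 6 probe sets, with a median of -1.58 over the probe sets, followed by medians of -1.33 in line 6B, -0.96 in 6D and -0.90 in 84. Line 84 had the smallest difference on 5 probe sets and 6D on the other one. The values ran from -2.18 (6A, 1436759_x_at) to -0.13 (6D, 1438354_x_at). Without line 84 the mean difference of the brightest probe set was -1.37.

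**Figure D2:**
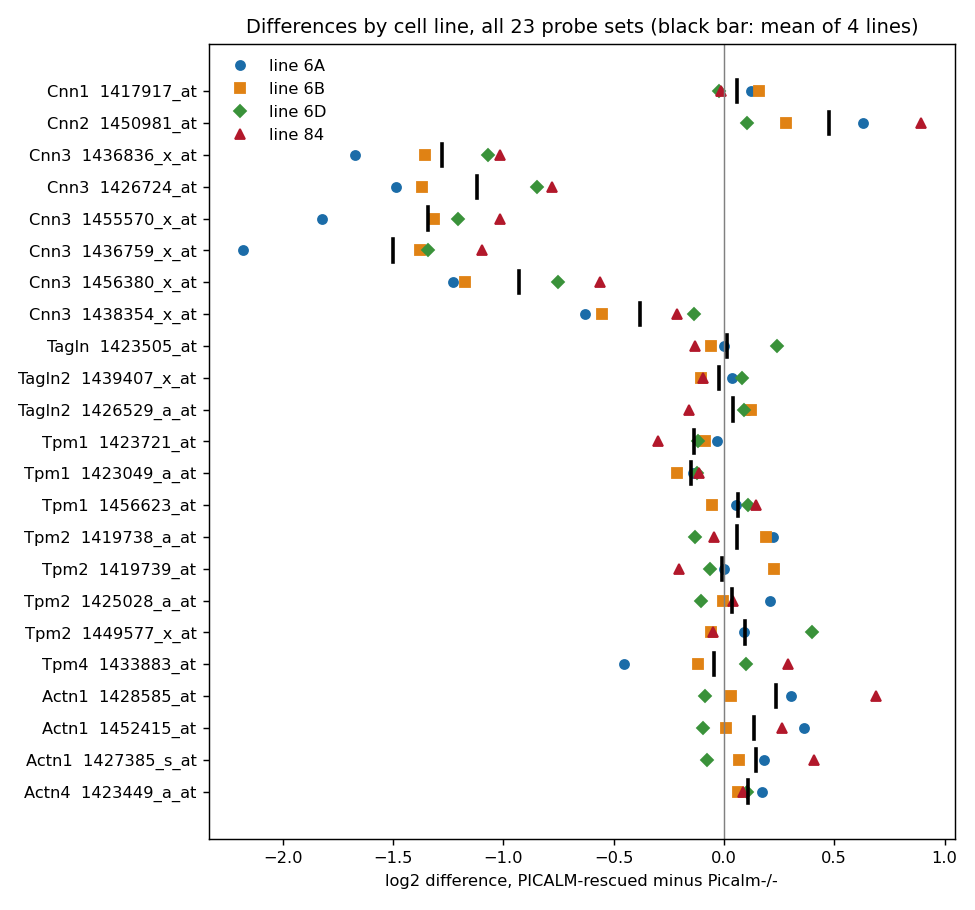
Log2 difference, PICALM-rescued minus Picalm-/-, for each of the 23 probe sets (rows) in each cell line (symbols), with a black bar at the mean of the 4 lines and a grey line at 0. The 6 Cnn3 rows lie to the left of 0 in every line, the Cnn2 and Actn4 rows to the right in every line, and the Tpm4 row spreads from -0.45 in line 6A to 0.29 in line 84.

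Cnn2 encodes the calponin of blood cells, epidermis and other tissues under tension, where it is known to restrain the movement of macrophages and neutrophils in mice. The gene spans chr10:79988600-79995400. Its probe set 1450981_at read 12.20, 11.91, 11.90 and 11.91 in rescued cells of lines 6A, 6B, 6D and 84, against 11.57, 11.63, 11.80 and 11.02 in Picalm-/- cells. All 4 rescued arrays lay above all 4 Picalm-/- arrays, and 1.88% of all probe sets were higher without overlap. The means were 11.98 ± 0.15 in rescued and 11.50 ± 0.34 in Picalm-/- cells (SD, n = 4), a difference of 0.48 (SE 0.18), 1.39-fold higher. The difference was 0.89 in line 84 and 0.63 in 6A, but 0.28 in 6B and 0.11 in 6D, and without line 84 its mean was 0.34. Cnn1, the calponin of differentiated smooth muscle, lay among the dimmest 40% of probe sets, with 4.68 to 4.80 in rescued and 4.55 to 4.72 in Picalm-/- cells.

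Actn4 and Actn1 are the non-muscle alpha-actinins. Actn4 (1423449_a_at) read 11.76, 11.77, 11.81 and 11.63 in rescued cells, against 11.59, 11.71, 11.70 and 11.55 in Picalm-/- cells of lines 6A, 6B, 6D and 84. It was higher in each line by a small amount, 0.06 to 0.17, with a mean of 0.11 (SE 0.02), although the groups overlapped. The brightest Actn1 probe set, 1428585_at, read 11.17, 11.21, 10.88 and 10.84 in rescued cells, against 10.87, 11.18, 10.97 and 10.15 in Picalm-/- cells. Its mean difference of 0.23 (SE 0.17) came largely from line 84, at 0.69, and was 0.08 without that line. The other 2 Actn1 probe sets had means of 0.13 (SE 0.11) and 0.14 (SE 0.10), and all 3 were higher in lines 6A, 6B and 84 and lower in 6D.

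The tropomyosins differed less. Tpm1 encodes alpha-tropomyosin, whose short and long isoforms are found in muscle and non-muscle cells alike, and the gene spans chr9:67022590-67049672. Its probe set 1423049_a_at read 7.91, 7.83, 7.86 and 8.61 in rescued cells, against 8.05, 8.04, 7.98 and 8.73 in Picalm-/- cells of lines 6A, 6B, 6D and 84. The rescued array was the lower one in each line, by 0.11 to 0.21 (mean -0.15, SE 0.02), but the groups overlapped because line 84 was high in both. A second probe set, 1423721_at, gave a mean of -0.13 (SE 0.06), lower in each line, and the third, 1456623_at, which was dim, 0.06. Tpm4, the gene of a tropomyosin of platelets, megakaryocytes and many other non-muscle cells, spans chr8:72135288-72153142. Its probe set 1433883_at read 10.54, 10.62, 10.49 and 9.56 in rescued cells, against 10.99, 10.74, 10.39 and 9.27 in Picalm-/- cells, so that the lines went both ways, lower in 6A (-0.45) and 6B (-0.12) and higher in 6D (0.10) and 84 (0.29), with a mean of -0.04 (SE 0.16). Tpm2 encodes beta-tropomyosin of skeletal and smooth muscle, and its 4 probe sets were all among the dimmest 40%, with mean differences of -0.01 to 0.10.

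The transgelins completed the family. Tagln2 encodes the transgelin of lymphocytes and other blood cells, where it stabilises cortical actin. Its probe set 1439407_x_at read 12.31, 12.28, 12.28 and 12.06 in rescued cells, against 12.27, 12.38, 12.20 and 12.15 in Picalm-/- cells of lines 6A, 6B, 6D and 84. The groups overlapped and the mean differences of the 2 Tagln2 probe sets were -0.02 and 0.04. Tagln, known as SM22 alpha and a marker of smooth muscle, was dim, with 6.21 to 6.34 in rescued and 6.10 to 6.40 in Picalm-/- cells and a mean difference of 0.01. Cnn1, Tagln and Tpm2, the smooth and skeletal muscle members, were the 3 genes of the 10 with every probe set among the dimmest 40%. Of 8 further smooth muscle markers, 5 were there too (Myh11, Actg2, Lmod1, Synpo2 and Myocd). The others, Acta2, Des and Smtn, lay outside the dimmest 40%. The mean over 8 smooth muscle markers was 5.94 to 6.06 in rescued and 5.83 to 5.95 in Picalm-/- arrays, and 10 of 10 fibroblast markers were in the dimmest 40%, at 5.44 to 5.47 in rescued and 5.35 to 5.43 in Picalm-/- arrays.

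Other cell type markers differed between the groups too, without passing the test. Of 12 neutrophil granule genes, 8 were higher in rescued cells in every line and 0 lower, and the list mean was 11.53 to 12.45 in rescued and 9.93 to 11.22 in Picalm-/- arrays, with a median difference of 0.99, or 0.39 without line 84. Camp, the cathelicidin of neutrophil secondary granules, read 12.45, 9.25, 10.03 and 9.59 in rescued cells, against 8.22, 8.08, 8.87 and 6.85 in Picalm-/- cells. Of 8 mast cell and basophil genes, 5 were higher with PICALM in every line and 0 lower (median 0.81, or 0.40 without line 84), with list means of 6.12 to 9.26 in rescued and 5.92 to 7.71 in Picalm-/- arrays. Of 8 hepatocyte and hepatoblast genes, 2 were lower in all 4 lines, Afp (-1.25) and Dlk1 (-1.23), 1 was higher in all 4, Ttr (0.08), and the median difference was 0.03, with list means of 6.27 to 6.54 in rescued and 6.55 to 6.79 in Picalm-/- arrays, and Alb, which defines hepatocytes, was in the dimmest 40%. By limma 0 genes of these 3 lists passed an adjusted p of 0.05, with 6 of 12, 5 of 8 and 2 of 8 at an unadjusted p under 0.05, and over all genes 13.4% were higher and 12.0% lower in each line and 13.1% had such a p. SAM called 1 neutrophil gene higher and 1 hepatocyte gene lower. The part of these markers in the Cnn3 and Cnn2 values was not tested, and in bulk samples fewer cells of a type and less RNA per cell cannot be told apart.

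The 4 lines were then compared with each other, averaging the rescued and Picalm-/- array of each, a comparison that is independent of the one that chose the members. By the F test of the line terms in limma, with adjustment over all probe sets, 3 of 23 member probe sets differed among the lines at an adjusted p of 0.05 (13.0%), against 10.8% of all probe sets. They were 2 of Tpm1 and the 1 of Tpm4, and line 84 differed from the other lines on each. The other 20 were not called, among them all 6 of Cnn3.

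Tpm1 was higher in line 84. On 1423049_a_at the mean of the 2 arrays was 8.67 in line 84, against 7.98 in 6A, 7.94 in 6B and 7.92 in 6D, with a limma F test adjusted p of 0.0050. Line 84 exceeded the mean of the other 3 by 0.73 (SE 0.05), 1.65-fold, with an adjusted p of 0.0027 over the 4 such contrasts of all probe sets. On 1423721_at the line means were 9.02 in 84, against 8.22, 8.33 and 8.26 in 6A, 6B and 6D, a difference of 0.76 (SE 0.07), 1.69-fold, with an adjusted p of 0.0058. Both arrays of line 84 lay above all 6 arrays of the other lines on both probe sets. The dim probe set 1456623_at had a difference of 0.29 (SE 0.06) that was not called (limma adjusted p = 0.0567). Line 6D, the lowest on 1423049_a_at, was lower than the mean of the others (adjusted p = 0.0406), a contrast in which 0.884% of all probe sets were called lower and in which the mean of the others holds line 84. Without line 84 it was not called, at -0.04 (adjusted p = 0.860).

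Tpm4 was lower in line 84. The line means were 9.41 in 84, against 10.77 in 6A, 10.68 in 6B and 10.44 in 6D, with a limma F test adjusted p of 0.0212. Line 84 fell below the mean of the other 3 by 1.22 on the log2 scale (SE 0.14), 2.33-fold lower, with an adjusted p of 0.0123. Both of its arrays, at 9.56 (rescued) and 9.27 (Picalm-/-), lay below the 6 others, the lowest of which was at 10.39. These calls rested on line 84, for without it the limma F test gave adjusted p-values of 0.858 and 0.674 for the Tpm1 probe sets and 0.629 for Tpm4. Leaving out any 1 of the other lines kept the contrast of line 84 on all 3 probe sets, with adjusted p-values of 0.0126 to 0.0386.

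**Figure D3:**
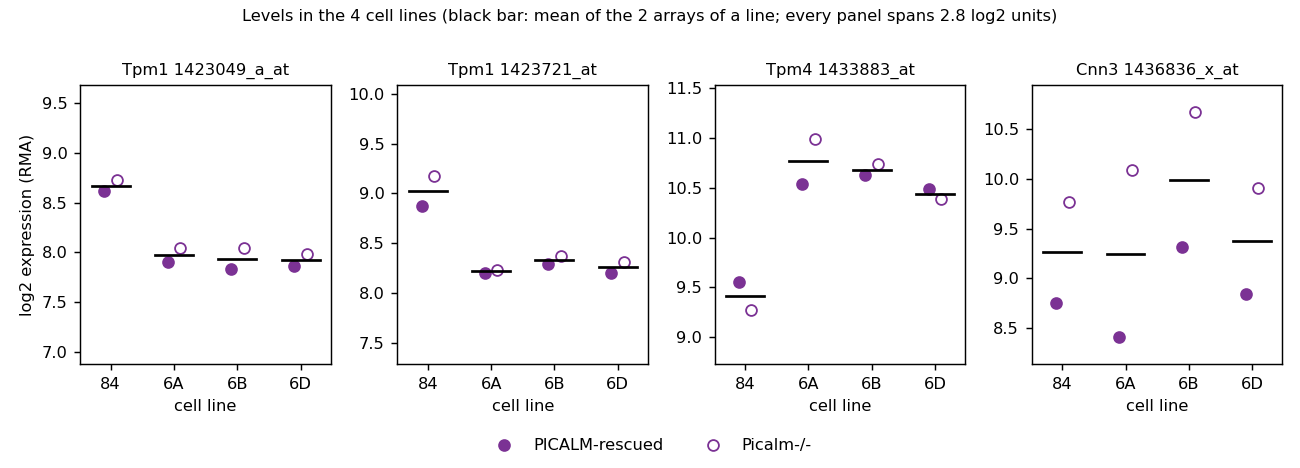
Log2 expression in the rescued array (filled) and the Picalm-/- array (open) of each cell line, line 84 at the left, with a black bar at the mean of the 2 arrays of a line. For both Tpm1 probe sets line 84 lies above the other lines and for Tpm4 below them (9.41 against 10.44 to 10.77), while for Cnn3 the distance between the groups within a line exceeds that between any 2 line means.

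Cnn3 was the one other member with a contrast near the threshold. Line 6B had the highest line mean on 1436836_x_at, at 9.99, against 9.25 in 6A, 9.38 in 6D and 9.26 in 84, and exceeded the mean of the other 3 by 0.70 (SE 0.13), 1.62-fold, with a limma adjusted p of 0.0491, a contrast in which 0.950% of all probe sets were called higher. The F test did not call it (adjusted p = 0.0805), and the contrast's adjusted p was 0.0366 without line 6A, 0.0750 without 6D and 0.233 without 84. On the other 5 Cnn3 probe sets line 6B also had the highest mean, by 0.11 to 0.68 over the mean of the others, and 0 of them were called (adjusted p = 0.0754 to 0.665), although without line 6A the contrast was called on 1455570_x_at (0.0321) and 1436759_x_at (0.0360) too. Without line 6A the F test called these 3 Cnn3 probe sets (adjusted p = 0.0380 to 0.0464). Actn1, Cnn2, Actn4 and Tagln2 had no called contrast, the nearest being Actn1 in line 84 on 1428585_at, at -0.55 (SE 0.15, adjusted p = 0.118).

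Markers of other cell types moved with line 84 as well. Over all 12393 genes, limma called 1022 higher and 980 lower in line 84, and of 10 hematopoietic markers 2 were higher and 2 lower. In both lists below, 4 of 8 genes lay in the dimmest 40%. Of 8 megakaryocyte genes, 3 were higher in line 84 by limma (Pf4, Itga2b and Gp9) and 1 was lower (Vwf), and the list mean was 6.61 (rescued) and 7.12 (Picalm-/-) in line 84, against 6.09 to 6.23 (rescued) and 6.03 to 6.17 (Picalm-/-) in the other lines. Itga2b, the platelet integrin chain, was 2.56 above the mean of the other lines. Of 8 mast cell and basophil genes, 4 were higher in line 84, with list means of 9.26 (rescued) and 7.71 (Picalm-/-), against 6.12 to 7.14 (rescued) and 5.92 to 6.12 (Picalm-/-). The part of these cells, or of the interferon genes above, in the Tpm1 and Tpm4 levels was not tested.

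The genes whose levels over the 8 arrays lay nearest to the members were found by the root mean square distance between profiles, each centred on its own mean, over 12392 genes. Nearest to Cnn3, whose own SD over the arrays was 0.72, were Dlk1 (0.42), Cp (0.45), Tcf4 (0.45), Abcb1b (0.46) and Mef2c (0.46), all lower in rescued cells on average, by 1.23 for Dlk1 and 0.61 for Tcf4. Cnn3 was chosen for its lower values in rescued cells, which shape its profile, so the direction of its neighbours follows from that choice. The distances from Cnn3 are large beside its own SD. For Cp, Tcf4, Abcb1b and Mef2c they also exceed the gene's own SD (0.42, 0.40, 0.38 and 0.34). The profiles were therefore alike only in part. Nearest to Tpm1 (SD 0.34) were Rai1 (0.0468), Gemin8 (0.0532) and Med7 (0.0564), and nearest to Tpm4 (SD 0.56) were Scpep1 (0.0491), Il6st (0.0819) and Frmd4b (0.119). The 8 points share 4 lines, and nothing is said here of shared function.

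The relatives that are not members varied little. Tpm3, the other widely used non-muscle tropomyosin, read 13.52, 13.55, 13.50 and 13.48 in rescued cells, against 13.51, 13.49, 13.50 and 13.36 in Picalm-/- cells of lines 6A, 6B, 6D and 84, a mean difference of 0.05 (SE 0.03), or 0.02 without line 84. Tagln3 of neurons and the muscle actinins Actn2 and Actn3 were dim. Over the 10 members, taking the brightest probe set of each, the median difference was 0.04, with 2 higher and 2 lower in all 4 lines.

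Among genes of the actin cytoskeleton and of SRF control, more were higher than lower with PICALM in every line, by small amounts. Besides proteins of the filament, the lists hold relatives of the members, SRF with its coactivators, and targets of SRF, immediate early genes included. They gave 114 measured genes, each counted once. Of these, 43 (37.7%) were higher in rescued cells of each of the 4 lines and 3 were lower, against 13.4% higher and 12.0% lower of all 12393 genes. Over lines 6A, 6B and 6D alone, 53 of 114 (46.5%) were higher in each, against 21.7% of all genes. By limma 0 of the 114 passed an adjusted p of 0.05 and 16 had an unadjusted p under 0.05, a share near that of all genes, 1619 of 12393 (13.1%), and the paired SAM called 0. The median difference over the 114 was 0.07, and that over all genes 0.01. The hematopoietic markers went the same way, with 4 of 10 higher in all 4 lines, 0 lower and a median of 0.07. Among those 4, Coro1a and Lcp1 belong to the cytoskeletal lists too. The dimmest 40% held 28 of the 114 genes, against 4513 of all 12393. Whether the excess of higher genes is particular to actin and SRF genes, or shared by brighter genes of blood cells, was not tested.

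SRF, with the MRTFs, is the known regulator of several members. Srf read 10.09, 10.03, 10.16 and 10.07 in rescued cells, against 10.03, 9.97, 10.08 and 9.55 in Picalm-/- cells, a difference of 0.18 (SE 0.11), or 0.07 without line 84. Mrtfa, the coactivator that senses free actin, differed by 0.12 (SE 0.04), higher in each line. Of 23 measured contractile and cytoskeletal targets of SRF and the MRTFs, which leave the members out, 13 (56.5%) were higher in all 4 lines and 0 lower, with a median of 0.10 (0.11 without line 84). By limma 0 of the 23 were called and 7 (30.4%) had an unadjusted p under 0.05, against 13.1% of all genes. Vcl, encoding vinculin, read 11.08, 11.05, 11.05 and 10.84 in rescued cells, against 10.70, 10.93, 10.94 and 9.84 in Picalm-/- cells, a mean difference of 0.40 (SE 0.21), with 0.11 to 0.38 in the lines other than 84. Acta2, smooth muscle alpha-actin, read 8.45, 8.53, 8.38 and 8.76 in rescued cells, against 8.12, 8.27, 8.35 and 8.03 in Picalm-/- cells. Its groups did not overlap, where 1.88% of all probe sets were higher without overlap. The difference was 0.34 (SE 0.14), or 0.21 without line 84. Lima1 differed by 0.39 (SE 0.19), or 0.20 without line 84, Smtn by 0.34 (SE 0.11) and Flna, the crosslinker filamin A, by 0.28. The immediate early targets of SRF behaved otherwise, with 0 of 7 higher and 1 (Fosb) lower in all 4 lines and a median of -0.05, or -0.11 without line 84.

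**Figure D4:**
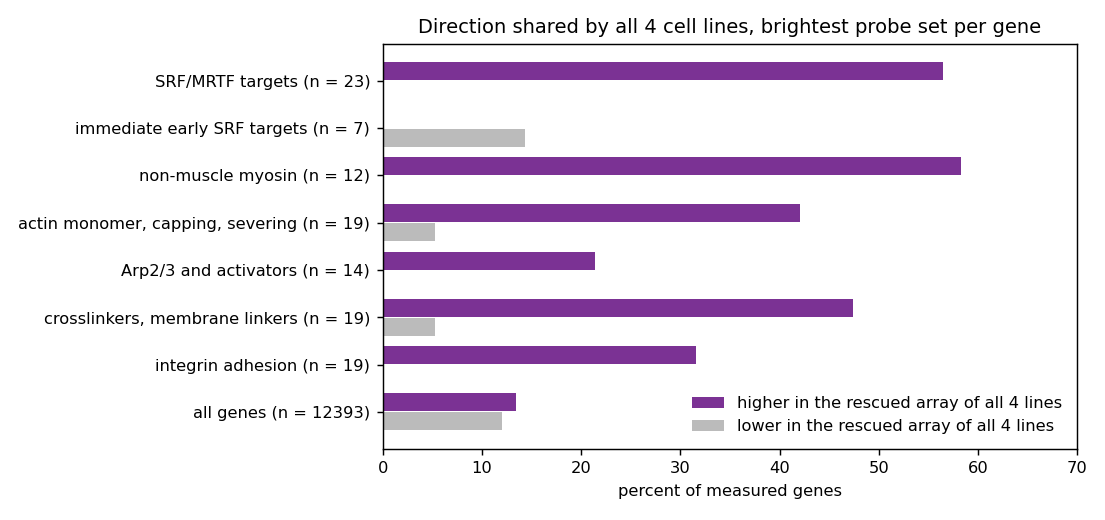
Share of the measured genes of 7 cytoskeletal and SRF lists, in percent, that lay higher (purple) or lower (grey) in rescued cells of each of the 4 lines, with the number of genes beside the name and all genes in the bottom row. The SRF and MRTF targets (56.5% higher) and the non-muscle myosin list (58.3% higher) have the longest purple bars of these 7, against 13.4% of all genes, and grey bars reach 14.3% (1 of 7 immediate early genes) at most.

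Among the motor genes, 7 of 12 of the non-muscle myosin list were higher in all 4 lines and 0 lower (median 0.10), led by Rhob, a small GTPase (0.24, or 0.14 without line 84), the light chain Myl12b (0.17, or 0.08) and the phosphatase subunit Ppp1cb (0.17, or 0.08). Mylk, the kinase that activates myosin light chains, read 9.81, 9.90, 9.51 and 6.73 in rescued cells, against 10.45, 10.15, 9.77 and 6.64 in Picalm-/- cells, so that line 84 lay far below the others in both groups, by -3.25 (SE 0.13, limma adjusted p = 0.0006). Mylk was singled out after its values were seen. Of 19 genes for monomer binding, capping and severing, 8 were higher and 1 lower in all 4 lines (median 0.05), with Dstn, a filament-severing protein, at 13.31, 13.21, 13.24 and 12.81 in rescued cells, against 12.93, 12.95, 13.09 and 11.19 in Picalm-/- cells. Its mean difference of 0.60 (SE 0.34) was made up of 1.62 in line 84 and 0.15 to 0.38 in the other lines. Capza2 (-0.09, or -0.02 without line 84) was the one that was lower.

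Of 19 crosslinkers and membrane linkers, 9 were higher and 1 lower in all 4 lines (median 0.05), with Vil1 (0.18), Add1 (0.17) and Add3 (0.16) after Flna, and Lasp1 (-0.06) lower. The integrin adhesion partners of actinin had 6 of 19 higher and 0 lower (median 0.09), with Trip6 (0.25), Vasp (0.16) and Ilk (0.14) after Vcl. The Arp2/3 complex, which nucleates branched filaments, and its activators had 3 of 14 higher and 0 lower (median 0.04), namely Coro1a (0.12), Was (0.11) and Arpc5 (0.08, or 0.03 without line 84). None of these lists had a gene called by limma at an adjusted p of 0.05. An unadjusted p under 0.05 was found for 1 Arp2/3 gene (7.14%) and for 4 genes each of the crosslinkers and the adhesion list (21.1%). Over all genes, 13.1% had such a p, and 13.4% were higher and 12.0% lower in all 4 lines.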

How the data were processed

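Per the deposited table, the authors normalized 8 arrays by RMA, and the values were used as log2 levels without further normalization. The labels name the A version of the mouse array and the methods its full version. After 64 control probe sets were dropped from 22690, 22626 were tested. The platform annotation gave 1 symbol for 20380 of these, several for 691 and none for 1555. Array medians were 7.32 to 7.35. In 0.999% to 2.75% of probe sets the 2 arrays of a line had identical values.

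The table was fitted with limma 3.58.1 in R 4.3.3 (lmFit, eBayes) with group and cell line as terms, two-sided, and p-values were adjusted by Benjamini-Hochberg over every probe set and, for contrasts of lines, over the 4 contrasts together. Arrays were paired by cell line, as the labels give it. Deviations of the 2 arrays of a line from the group means correlated at 0.623 to 0.811. The methods name SAM and a t-test and mention no pairing, and here both were alternatives paired by cell line. The further settings were quantile normalization, median centring, leaving out the dimmest 40%, a variance trend with robust settings, no block, a threshold of 0.1, averaging the probe sets of a gene and leaving out each line. The fit was tested on simulated data.

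The members and the 18 gene lists (223 entries, 205 of them measured by the brightest probe set of each gene) were chosen with earlier results of these data known. The text names all members and, of each list, genes called between the groups (0 in the lists) and up to 4 others of one sign in all 4 lines with the largest difference, markers that define a cell type, and the nearest profiles. Other alternatives and the combined list were added after the data were seen. Promoters and gene positions are from RefSeq, GRCm38.p6.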

Additional observations from a re-analysis of the deposited data

Results flagged for a closer look

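In 46 groups of 4 arrays (23 probe sets in 2 groups) the array farthest out was set against the other 3, and 9 (19.6%) lay far outside, where chance gives about 1 in 20. The share over all probe sets was not computed. Most of the 9 were arrays of line 84, which stood apart on probe sets at large, so the count is not read as a trait of the members. On the Tpm1 probe set 1423049_a_at line 84 was highest in both groups, at 8.61 in rescued cells (the other lines 7.83 to 7.91) and 8.73 in Picalm-/- cells (7.98 to 8.05). On the second, 1423721_at, it was highest at 8.87 in rescued cells (8.20 to 8.29) and 9.17 in Picalm-/- cells (8.23 to 8.37). On Tpm4 the rescued array of line 84 was lowest, at 9.56 (10.49 to 10.62).

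Tagln2 had an outlying array of line 84 in opposite directions on its 2 probe sets. On 1439407_x_at the rescued array was lowest, at 12.06 (12.28 to 12.31), and on 1426529_a_at the Picalm-/- array was highest, at 12.13 (11.88 to 11.92). For Cnn2 the rescued array of line 6A was highest, at 12.20 (11.90 to 11.91). For the dim Tpm2 probe set 1449577_x_at the rescued array of line 6D was highest, at 4.19 (3.87 to 3.92).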

How the results depend on the processing

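The number of probe sets called between rescued and Picalm-/- cells, 4 at an adjusted p of 0.05, was 8 of 13576 with the dimmest 40% left out, 32 with a variance trend and robust settings and 18 at an adjusted p of 0.1. It was 418 by paired SAM at a false discovery rate under 0.1. A t-test paired by cell line called 2211 at an unadjusted p under 0.05, of which 0 were left after adjustment. Leaving out any 1 line gave 0 to 0. Without the replicate block, that is without pairing by line, it was 0, also with each array left out. The count of probe sets that differed among lines, 2440, was 3740 with the trend, 4486 at 0.1, and 58 (without line 84) to 1491 with a line left out. At 0.1 the line contrasts gave 1031 for 6A, 891 for 6B, 824 for 6D and 5411 for 84.

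The median of the cytoskeletal and SRF lists together was 0.0527 after quantile normalization, 0.0552 by the mean over probe sets and 0.0555 to 0.0629 with a line left out. That of the crosslinkers was 0.0299 by the mean over probe sets. With a line left out, medians ran from 0.0443 to 0.0786 for crosslinkers, 0.0678 to 0.143 for SRF and its coactivators, 0.0649 to 0.112 for SRF targets, 0.0132 to 0.0589 for Arp2/3, 0.0454 to 0.0954 for fibroblast markers and 0.387 to 1.26 for neutrophil granules. The cause of these shifts was not tested. Of 288 such values over all members and lists, 276 moved by less than the spread between lines, and 12 by more. None of the 288 is a called value, and 15 changed sign. Of these 15, 10 were for Tagln, Tagln2, Tpm2 and Tpm4 and 5 for marker lists and the interferon response (0.05 without line 84, against -0.68). Tpm4 was at 0.09 without line 6A, against -0.04. Tpm1 on 1423049_a_at in line 6B, at an adjusted p of 0.0502, passed after quantile normalization (0.0405) or median centring (0.0475) or without line 6D (0.0489), and was at 0.962 without line 84. With 8 arrays, 1 line decides the calls among lines, and levels near background limit Cnn1, Tagln and Tpm2.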

Other observations

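Several genes of the cytoskeletal and SRF lists differed among lines, which the comparison of groups does not show, although by the F test their share was near that of all genes. By limma, line 84 was lower than the mean of the other 3 lines for Lima1 (-1.26, SE 0.17), a filament-bundling protein, Rdx (-0.82, SE 0.09), which links filaments to the membrane, Lasp1 (-0.55, SE 0.05), Cap1 (-0.51, SE 0.07), which recycles actin monomers, Capg (-0.52, SE 0.08), which caps filament ends, Hcls1 (-0.55, SE 0.07), an activator of Arp2/3, Arpc4 (-0.34, SE 0.05), a subunit of Arp2/3, Rhob (-0.71, SE 0.10), Twf2 (-0.57, SE 0.11), Ppp1cb (-0.49, SE 0.09) and Smtn (-0.55, SE 0.10). Their adjusted p-values were 0.0075 to 0.0457, and Mylk was described above. Line 84 was higher for Lsp1 (1.13, SE 0.19), a leukocyte filament-binding protein, Pdlim1 (0.65, SE 0.11), a partner of alpha-actinin, Pdlim7 (0.58, SE 0.11) and Add3 (0.31, SE 0.06), with adjusted p-values of 0.0347 to 0.0450. These are all the genes of the lists called in that contrast, 12 lower and 4 higher of 114. Over all 12393 genes, 980 were lower and 1022 higher in it. By the F test, 12 of the 114 genes (10.5%) differed among the lines, against 11.8% of all genes. They were the genes called in the contrast of line 84 other than Smtn, Ppp1cb, Twf2, Pdlim7 and Add3, together with Csrp1 (F test adjusted p = 0.0438).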
